A study of Mus musculus with 12 samples.

Results

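The genes described here are the 282 long non-coding RNAs that were well expressed in purified mouse cortical astrocytes. They were chosen by measured values: every gene with the biotype lncRNA in the deposited gene table whose mean over the 12 libraries was 5 CPM or more (CPM is a gene's read count scaled to the total count of its library). The table lists 45777 genes, of which 12570 have this biotype. Of those, 12288 fell below the threshold, including 5895 with no read in any library. The level that chose the members is a description and no finding. The threshold falls in a continuous range, with 9630001P10Rik, LOC102631979 and Gm41077 just inside it at 5.03, 5.01 and 5.01 CPM, and Gm32618, Gm39090 and Ino80dos just outside it at 4.99, 4.94 and 4.93 CPM. In 41 of the 282 members at least 1 group had a mean under 5 CPM, so that the other groups carried them over the threshold.

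Astrocytes were purified from the cerebral cortex of mouse pups at postnatal day 14 by immunopanning and magnetic beads, and RNA was sequenced with an mRNA kit from 3 libraries in each of 4 groups. Cre- control pups had loxP-flanked (floxed) alleles of Nr3c1, the gene of the glucocorticoid receptor, and no Cre. Cre- ESD pups had the same genotype and were taken from the dam for 3 hours a day from day 1 to day 14, an early life stress. AGR cKO control and AGR cKO ESD pups were reared without and with this separation and also carried Aldh1l1-CreERT2, an inducible Cre driven by the promoter of an astrocyte gene. All 4 groups, controls included, received 4-hydroxytamoxifen from day 5 to day 7. The genotype labels carry numbers that count up with the replicate, so the groups follow the sample titles. The labels used here do not say whether the libraries came from separate animals, litters or pools, and p-values therefore measure only the spread between these libraries.

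Long non-coding RNAs are transcripts without a long open reading frame. Some build nuclear bodies, some bind and hold proteins, and some are precursors that carry small nucleolar RNAs or microRNAs. In glia and their precursors, several are transcribed beside or across developmental transcription factor genes such as Sox2, Sox1 and Nfia. The glucocorticoid receptor is a hormone-activated transcription factor that binds palindromic response elements in DNA, and Gas5 is known for an RNA stem that imitates such an element.

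A microRNA hairpin lay on the same strand inside 14 members, and the mature microRNAs of the hosts on which the results turn are shown here, with the seed (bases 2 to 8) in capitals (RefSeq, GRCm38.p6). All 3 genes of miR-9, a microRNA of the neural lineage, lay in members: Mir9-1 in Gm3764, Mir9-2 in C130071C03Rik and Mir9-3 in Mir9-3hg, and each gives the same mature pair. Mir100hg holds miR-100, let-7a-2 and miR-125b-1, Mir22hg holds miR-22, and D030055H07Rik holds miR-135a-1. The miR-9 hosts share a seed, and the others each have their own. For the hairpins other than those of miR-9 the partner form is not shown. For let-7a-2 the 5p form was not among the sequences at hand.
miR-9-5p: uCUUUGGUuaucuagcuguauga
miR-9-3p: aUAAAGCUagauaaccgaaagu
miR-100-5p: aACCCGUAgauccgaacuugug
miR-125b-5p: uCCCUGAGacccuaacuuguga
let-7a-2-3p: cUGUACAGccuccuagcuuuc
miR-22-3p: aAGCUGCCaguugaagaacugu
miR-135a-5p: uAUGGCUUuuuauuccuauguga

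The libraries held 42603546 to 52130081 counts, and every member had at least 1 read in every library except Gm15564. Nr3c1 itself averaged 223 ± 16.2 CPM in Cre- control, 201 ± 6.62 in Cre- ESD, 102 ± 7.92 in AGR cKO control and 83.3 ± 13.7 in AGR cKO ESD (SD, n = 3), a log2 fold change of -1.20 ± 0.09 (SE, adjusted p = 0.0002, edgeR) with receptor loss. The summed level of 12 astrocyte markers lay between 44820 and 59510 CPM in every library. With receptor loss 8 of the 12 were lower and 4 higher, at -0.51 to 0.50 on the log2 scale with a median of -0.06. At the adjusted threshold 1 of them was called higher and 1 lower, beside 3.49% of all genes (edgeR). For 12 microglia and macrophage markers the Cre- libraries summed to 342 to 1048 CPM when reared normally and 473 to 790 when separated, and the AGR cKO libraries to 201 to 452 and 156 to 424 CPM. All 12 of these markers and all 10 endothelium markers had a lower fitted level in AGR cKO, with medians of -1.06 and -1.02 on the log2 scale, and 0 of each list passed the adjusted threshold. Of 8 ependyma and choroid plexus markers 7 were lower with a list median of -0.94, and 5 of them passed the adjusted threshold, while the other was at 2.75. All 5 erythroid markers (median -1.04) and all 9 mural cell and fibroblast markers (median -0.27) were lower, with 0 called. At an unadjusted p under 0.05 (edgeR), 12 microglia and macrophage, 9 endothelium, 5 erythroid and 1 of the mural cell and fibroblast markers passed, beside 20.0% of all genes. Of 7 oligodendrocyte precursor markers 5 were lower, with a list median of -0.48, 3 at that unadjusted p and 0 called. The part of these cells in the genotype results was not tested. The covariate fits given below cannot decide it, because the marker sums differ with genotype themselves. In bulk libraries like these, fewer cells of a type and less RNA per cell cannot be told apart.

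Together the 282 members took 0.891 ± 0.0437% of the counts in Cre- control, 0.863 ± 0.0380% in Cre- ESD, 0.909 ± 0.102% in AGR cKO control and 0.873 ± 0.0880% in AGR cKO ESD (SD, n = 3). The group ranges overlapped. Malat1, the RNA of nuclear speckles, supplied 22.6% of the members' counts and the 10 most abundant members 49.3%. Mean levels ran from 5.01 to 1998 CPM with a median of 9.59 CPM, and 12 members reached 100 CPM.

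Levels were compared between genes in TPM, a share of all transcripts that divides by transcript length. On this scale Malat1 had the highest mean of the 282, 824 TPM over the 12 libraries, followed by Gm3764, the host of Mir9-1, at 597 TPM. Pantr1, transcribed beside the neural transcription factor gene Pou3f3, was at 367 TPM. By CPM, which is not per length, Pantr1 had rank 23. The next were 1500009C09Rik at 160.5, Gas5 at 157, 5930403L14Rik at 139, 2900097C17Rik at 132, C130071C03Rik at 117, 2900052N01Rik at 116 and B930095G15Rik at 106 TPM. 2900097C17Rik is the mouse counterpart of NORAD, an RNA that binds Pumilio proteins. Neighbours in this order such as Gas5 (157 ± 4.96 TPM) and 1500009C09Rik (148 ± 30.4 TPM) did not differ beyond their spread in Cre- control (SD, n = 3). In Cre- ESD Gas5 was at 148 ± 8.7 TPM and 1500009C09Rik higher, at 173 ± 10.1 TPM, so their order was not the same in every group.

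Transcript estimates showed which isoform carried a member. Of the 2 Neat1 transcripts listed, the short one of 3185 bases carried 98.4% of Neat1's TPM, with a range of 95.01 to 99.2% over the libraries. The long Neat1 form is the one known to scaffold paraspeckles. The span of the short form lies almost wholly inside that of the long one, and the libraries were made with an mRNA kit. How these bear on the split was not tested, so it is no measure of how much long form the cells make. The 751-base form NR_153812 carried 75.8% of Gas5, and NR_152246 carried 69.8% of C130071C03Rik. The 1913-base form NR_027652 carried 76.5% of Meg3. For Gm3764, with 50 transcripts listed, the leading form carried 8.62% of its TPM, and how the estimate divides reads among so many overlapping models was not tested.

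Members had a higher spread between libraries than coding genes of the same level, a description with no test. Over the 12 libraries the median coefficient of variation (CV, SD over mean of the CPM) was 16.1% for the 255 members at 5 to 50 CPM and 11.7% for 7051 protein-coding genes in that range. The most even was Tug1, a nuclear RNA first described in the retina, at 148, 131 and 129 CPM in Cre- control, 133, 137 and 136 in Cre- ESD, 142, 139 and 134 in AGR cKO control, and 139, 126 and 133 in AGR cKO ESD. Its CV was 4.52%. 1810026B05Rik and Gm26512 followed at 5.97% and 6.11%. The most uneven were Gm15564 at 125%, LOC108167751 at 72.6% and Gm46093 at 60.5%.

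By position, 281 members matched the RefSeq gene table and 1, D930016D06Rik, did not. Curated transcripts supported 159 members and predicted transcripts alone the other 123. The RefSeq table lists 7 of the 281 as protein-coding, among them Mtln, the gene of the mitochondrial peptide mitoregulin. The span of 56 members lay wholly inside another gene that is protein-coding, 80 partly overlapped one, 76 lay within 5 kb of one and 69 lay further away. Of the 136 overlapping members, 82 had a coding gene on the opposite strand and 43 on the same strand. Their spans touched an exon of the coding gene in 103 cases and only introns in 31. Whether the authors' counting used strand is not given in the sources used here, so reads of a member and of an overlapping coding gene cannot be told apart by these counts.

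Loss of the receptor, tested over both rearing conditions, changed 10 of the 282 members at an adjusted p under 0.05 (edgeR quasi-likelihood F test, Benjamini-Hochberg adjustment over 19163 genes). That is 3.55% of the members, beside 3.49% of all genes tested. Of the 10, 5 rose and 5 fell, beside 1.55% and 1.94% of all genes called in those directions. Levels in AGR cKO libraries were lower for B930095G15Rik, Gm31262, LOC115489729, Gm16168 and LOC108167751. They were higher for C130071C03Rik, Mir100hg, Gm46954, Gm30368 and E130114P18Rik.

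B930095G15Rik, inside Farp1 (chr14:121248706-121253971, GRCm38), gave 182, 236 and 228 CPM in Cre- control, 268, 280.4 and 269.7 in Cre- ESD, 150.2, 145 and 144 in AGR cKO control, and 117, 149 and 154 in AGR cKO ESD. All 6 AGR cKO libraries were below all 6 Cre- libraries, and the Cre- ESD libraries were the highest. The log2 fold change over both rearing conditions was -0.77 ± 0.08 (SE, adjusted p = 0.00320). Gm31262, inside the nuclear receptor gene Rora (chr9:68823368-68923966), gave 9.02, 9.25 and 8.97 CPM in Cre- control, 9.69, 11.3 and 12.8 in Cre- ESD, 7.07, 6.02 and 5.14 in AGR cKO control, and 5.10, 7.62 and 6.12 in AGR cKO ESD. Its genotypes did not overlap, and its fold change was -0.72 ± 0.11 (SE, adjusted p = 0.00948) on the log2 scale.

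LOC115489729, inside Ahcyl1, whose protein binds the inositol trisphosphate receptor, gave 11.7, 12.2 and 11.5 CPM in Cre- control, 9.39, 10.6 and 13.4 in Cre- ESD, 9.24, 7.00 and 6.59 in AGR cKO control, and 5.95, 6.11 and 8.19 in AGR cKO ESD (chr3:107678289-107684535). The genotypes did not overlap, though AGR cKO control replicate 1 came close to the lowest Cre- ESD library. The log2 fold change was -0.68 ± 0.13 (SE, adjusted p = 0.0174). LOC108167751, inside the calpain gene Capn2 (chr1:182486021-182495424), gave 63.7, 107 and 106 CPM in Cre- control, 57.7, 66.8 and 180.2 in Cre- ESD, 33.97, 35.8 and 41.1 in AGR cKO control, and 20.6, 11.6 and 51.1 in AGR cKO ESD. The genotypes did not overlap, and Cre- ESD replicate 3 was by far the highest library. The span of LOC108167751 touches 10 exons of Capn2 on the other strand, 7 of them coding. The log2 fold change was -1.61 ± 0.37 (SE, adjusted p = 0.0405), and -1.25 (adjusted p = 0.0670) without that library. Gm16168 gave 4.48, 7.88 and 8.22 CPM in Cre- control, 5.47, 5.43 and 8.41 in Cre- ESD, 3.21, 3.32 and 3.41 in AGR cKO control, and 3.66, 3.93 and 4.92 in AGR cKO ESD. Cre- control replicate 1 lay among the AGR cKO libraries, and the log2 fold change was -0.85 ± 0.18 (SE, adjusted p = 0.0300). Gm16168 is 1 of the 41 members that passed the level threshold through some groups only.

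C130071C03Rik, the host of Mir9-2 (chr13:83721381-83741308), gave 123, 119.7 and 114 CPM in Cre- control, 120.3, 125 and 114 in Cre- ESD, 186, 150.1 and 143 in AGR cKO control, and 167, 177 and 154 in AGR cKO ESD. All 6 AGR cKO libraries were above all 6 Cre- libraries. The log2 fold change was 0.44 ± 0.07 (SE, adjusted p = 0.00761). Mir100hg (chr9:41376526-41615185) gave 49.9, 58.5 and 48.2 CPM in Cre- control, 39.1, 38.1 and 43.6 in Cre- ESD, 70.1, 63.2 and 65.1 in AGR cKO control, and 45.2, 63.8 and 65.4 in AGR cKO ESD. AGR cKO ESD replicate 1 lay among the Cre- libraries, and the log2 fold change was 0.43 ± 0.09 (SE, adjusted p = 0.0292).

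Gm46954, inside Ptprz1, a receptor phosphatase of the astrocyte lineage, gave 20.7, 27.7 and 24.01 CPM in Cre- control, 25.5, 29.2 and 23.7 in Cre- ESD, 47.97, 39.2 and 30.6 in AGR cKO control, and 33.99, 35.5 and 36.9 in AGR cKO ESD (chr6:22988197-22991626). The genotypes did not overlap, and the log2 fold change was 0.56 ± 0.11 (SE, adjusted p = 0.0237). Gm30368, which overlaps Pdxp and Lgals1 (chr15:78912204-78927995), gave 7.05, 9.12 and 7.30 CPM in Cre- control, 6.72, 5.70 and 7.43 in Cre- ESD, 13.9, 11.3 and 12.1 in AGR cKO control, and 7.79, 11.1 and 9.79 in AGR cKO ESD. AGR cKO ESD replicate 1 lay among the Cre- libraries, and the log2 fold change was 0.59 ± 0.12 (SE, adjusted p = 0.0235). E130114P18Rik, which partly overlaps the glial transcription factor gene Nfia (chr4:97567875-97584591), gave 18.1, 20.9 and 21.4 CPM in Cre- control, 18.9, 21.7 and 19.1 in Cre- ESD, 26.3, 22.01 and 22.2 in AGR cKO control, and 24.2, 26.7 and 27.8 in AGR cKO ESD. Its genotypes did not overlap, and its log2 fold change, the smallest of the 10, was 0.30 ± 0.07 (SE, adjusted p = 0.0495).

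**Figure D1:**
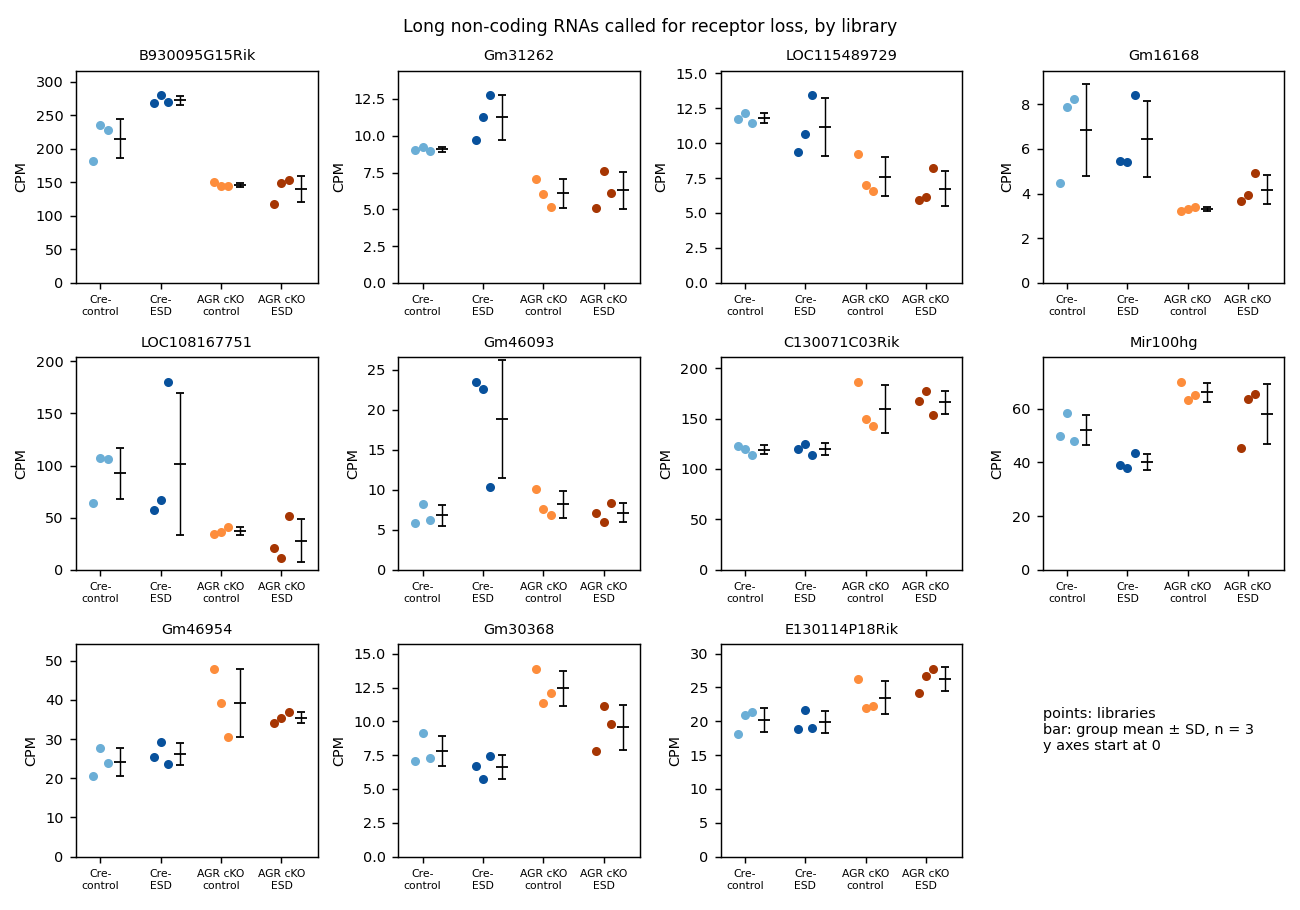
CPM of the 11 members called for receptor loss over both rearing conditions or in ESD, by group; each point is 1 library, and the bar beside the points is the group mean ± SD (n = 3). B930095G15Rik lies at 117 to 154 CPM in the AGR cKO libraries and at 182 to 280.4 CPM in the Cre- libraries, whereas Gm46093 is high in 2 Cre- ESD libraries.

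There were 8 members that separated the 6 AGR cKO libraries from the 6 Cre- libraries without overlap, 4 higher and 4 lower. Over all genes tested 1.45% did so upward and 1.39% downward. The 8 were 7 of the members above and 5930403L14Rik, which was not called. 5930403L14Rik gave 198, 243 and 270.3 CPM in Cre- control, 279.9, 264 and 243 in Cre- ESD, 291, 294 and 298 in AGR cKO control, and 304, 301 and 309 in AGR cKO ESD, a log2 fold change of 0.26 ± 0.08 (SE, adjusted p = 0.101).

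Counted over all 282 members, called or not, more fitted values were above 0 than below with receptor loss. The fitted fold change was positive for 184 of 282 members (65.3%), with a median of 0.07 on the log2 scale, beside 49.4% of all genes and a median of -0.002. At an unadjusted p under 0.05, 70 members passed, 55 higher and 15 lower in AGR cKO. Over all genes 20.0% passed, 8.70% higher and 11.3% lower. The split of members was 184 positive under RLE and upper-quartile scaling as well. With the microglia and macrophage markers as a covariate it was 157 positive with a median of 0.02, and 18 higher and 18 lower at an unadjusted p under 0.05. With the endothelium markers as a covariate it was 164 positive with a median of 0.05, and 30 higher and 24 lower. Of all 19163 genes, 2000 and 3156 had an unadjusted p under 0.05 in these 2 fits (edgeR). These covariates were chosen after seeing the data. Their group means were lower in AGR cKO, so the fits cannot split cell content from genotype. The members were chosen by level and share libraries, so no test was made of this count, and it is not shown to be particular to them.

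**Figure D2:**
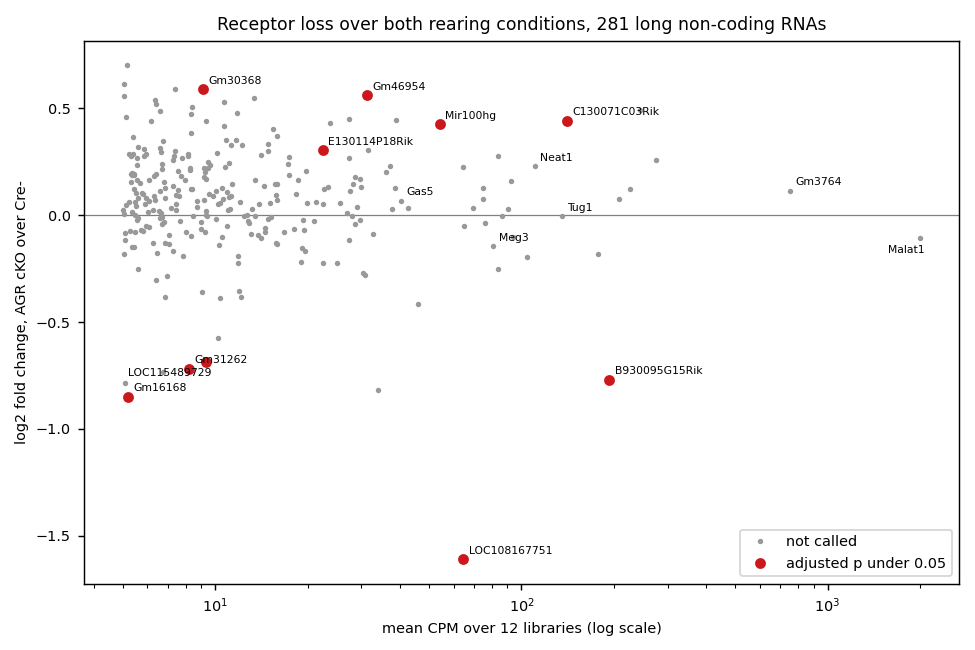
Log2 fold change of AGR cKO over Cre- (y axis) against mean CPM over the 12 libraries (x axis, log scale) for 281 of the 282 members, each a point, with the 10 called members in red; Gm15564, at 0 reads in 7 libraries, is not drawn. More points lie above 0 than below it, and the called members span 5.19 to 194 CPM.

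Of the 10 called members, 6 lay wholly inside a coding gene, a class of 56 members. Another 2 were among the 80 that partly overlap one, 2 among the 69 further than 5 kb away and 0 among the 76 within 5 kb. Farp1 fell with B930095G15Rik, by 0.70 ± 0.09 (SE, adjusted p = 0.00473) on the log2 scale, and the ratio of B930095G15Rik to Farp1 counts differed by -0.07 log2 units in AGR cKO, with overlapping libraries. B930095G15Rik lies on the same strand in a Farp1 intron. Ahcyl1 fell by 0.54 ± 0.10 (SE, adjusted p = 0.0192) and Capn2 by 0.25 ± 0.05 (SE, adjusted p = 0.0212). The ratio of LOC115489729 to Ahcyl1 differed by -0.16 and that of LOC108167751 to Capn2, on the opposite strand, by -1.37 log2 units. In both ratios some libraries of the genotypes overlapped.

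For the other hosts described here the fitted values did not pass the test. Rora was at -0.11 ± 0.09 (SE, adjusted p = 0.580), beside a ratio of Gm31262 to Rora that differed by -0.62. Ptprz1 was at 0.42 ± 0.12 (SE, adjusted p = 0.0712), and the ratio of Gm46954 to it differed by 0.15. Nfia was at 0.12 ± 0.06 (SE, adjusted p = 0.232). Pdxp and Lgals1, which Gm30368 overlaps on the opposite strand, were at 0.16 ± 0.11 (SE, adjusted p = 0.467) and 0.17 ± 0.14 (SE, adjusted p = 0.554). In each of these pairs some libraries of the genotypes overlapped in the ratio.

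These calls rest on small groups. B930095G15Rik, Gm31262 and C130071C03Rik passed whichever of the 12 libraries was left out, while E130114P18Rik passed in 1 of 12, and LOC108167751 and Mir100hg in 4 of 12. Gm31262 stayed called in 20 of 23 alternatives. It was not called by limma on log2(TPM + 1) or log2(TPM + 0.1), nor with the microglia and macrophage covariate. Its 1 listed transcript has 99351 bases and a mean of 0.236 TPM, a low level per length. The count of called members was 3, 4 and 6 without AGR cKO control replicates 2, 1 and 3, 5 without Cre- control replicate 3, and 8 to 14 without any other library. Calls over all genes in those fits were 151, 290, 288 and 415, and 279 to 932 without any other library, beside 668 with all 12. With the summed microglia and macrophage markers as a covariate, chosen after seeing the data, 1 member passed, B930095G15Rik, beside 46 of 19163 genes. With the endothelium markers 10 members passed, beside 667 genes, and with the neuron markers 10, beside 526 genes.

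Within the separated pups alone, receptor loss changed 4 members, 1 higher and 3 lower, or 1.42% beside 1.04% of all genes (0.584% higher and 0.459% lower). B930095G15Rik had a log2 fold change of -0.97 ± 0.12 (SE, adjusted p = 0.0154), Gm31262 of -0.85 ± 0.16 (SE, adjusted p = 0.0380) and C130071C03Rik of 0.47 ± 0.09 (SE, adjusted p = 0.0431). Gm46093 (chr1:66738213-66798061) was the other, and its span touches 7 exons of Kansl1l on the opposite strand, 6 of them coding. Gm46093 gave 5.83, 8.25 and 6.24 CPM in Cre- control, 23.5, 22.6 and 10.3 in Cre- ESD, 10.1, 7.55 and 6.87 in AGR cKO control, and 7.08, 5.91 and 8.30 in AGR cKO ESD. Cre- ESD replicates 1 and 2 stood above every other library, and replicate 3 was next to AGR cKO control replicate 1. Its log2 fold change was -1.41 ± 0.29 (SE, adjusted p = 0.0459) in the separated pups and 0.26 ± 0.29 in the controls. The 41652-base form XR_001778948 of Gm46093 was estimated at 46.9 ± 40.7% of its TPM in Cre- ESD (SD, n = 3) and at 0 in the other 3 groups. The number called was 0 without Cre- ESD replicate 1, 1 or 2 without any of 10 other libraries, 5 without Cre- control replicate 1, and 0 when only these 6 libraries were fitted. Calls over all genes in the same fits were 2, 13 to 146, 280 and 0, beside 200 in the main fit. At an unadjusted p under 0.05, 52 members passed, beside 15.6% of all genes.

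Among pups that were not separated, 0 members passed (0.0157% of all genes), and 31 had an unadjusted p under 0.05, beside 10.2% of all genes. DESeq2 called 5, beside 265 of the 19163 genes. The smallest p-values belonged to B930095G15Rik at -0.57 ± 0.12 (SE, adjusted p = 0.180), C130071C03Rik at 0.42 ± 0.09 (SE, adjusted p = 0.211) and Gm46954 at 0.69 ± 0.16 (SE, adjusted p = 0.228). This comparison and the preceding ones share libraries.

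Of 20 listed microRNA host transcripts 6 were members, and 2 of the 6 rose with receptor loss, C130071C03Rik and Mir100hg, beside 1.55% of all genes. These 6 are not the 14 members with a same-strand hairpin, a set without Mir99ahg and Mir124-2hg. That set has values of both signs, such as -0.73 for Rmst and 0.22 for Ftx. The 6 fitted values lay between 0.03 and 0.44 on the log2 scale with a median of 0.29, and in pups that were not separated 1 of the 6 was negative, at -0.24. Of listed hosts below the level threshold, Dleu2 was at -0.43, Mirg at -0.05 and Mir17hg at 0.02 over both rearing conditions. Mir99ahg gave 9.82, 12.8 and 12.7 CPM in Cre- control, 8.30, 9.49 and 8.48 in Cre- ESD, 15.4, 13.7 and 12.98 in AGR cKO control, and 11.1, 12.8 and 12.6 in AGR cKO ESD, a log2 fold change of 0.35 ± 0.09 (SE, adjusted p = 0.0633). Mir9-3hg gave 59.3, 67.00 and 58.6 CPM in Cre- control, 67.7, 51.5 and 51.8 in Cre- ESD, 68.3, 64.4 and 70.1 in AGR cKO control, and 55.2, 97.99 and 63.6 in AGR cKO ESD, with AGR cKO ESD replicate 2 the highest, and 0.23 ± 0.12 (SE, adjusted p = 0.333). Gm3764, the most abundant of the miR-9 hosts, gave 809, 863 and 629 CPM in Cre- control, 705, 672 and 669 in Cre- ESD, 786, 717 and 764 in AGR cKO control, and 684, 909 and 868 in AGR cKO ESD. Its groups overlapped, at 0.11 ± 0.09 (SE, adjusted p = 0.516).

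Of the 3 miR-9 genes, then, the host of Mir9-2 rose and the others did not pass. Mir22hg was at 0.03 ± 0.12 and Mir124-2hg at 0.11 ± 0.11. D030055H07Rik, host of miR-135a-1 and named here after its values were seen, had the highest fitted fold change of the members, 0.70 ± 0.22 (SE, adjusted p = 0.105). It gave 4.36, 4.40 and 6.17 CPM in Cre- control, 2.96, 3.08 and 2.87 in Cre- ESD, 7.83, 4.21 and 5.67 in AGR cKO control, and 3.55, 9.84 and 6.86 in AGR cKO ESD, with the 3 Cre- ESD libraries lowest. Both Cre- means of D030055H07Rik were under 5 CPM, so it entered through the groups where it is high, and its place in the order is no finding. The mature microRNAs were not analysed here.

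**Figure D3:**
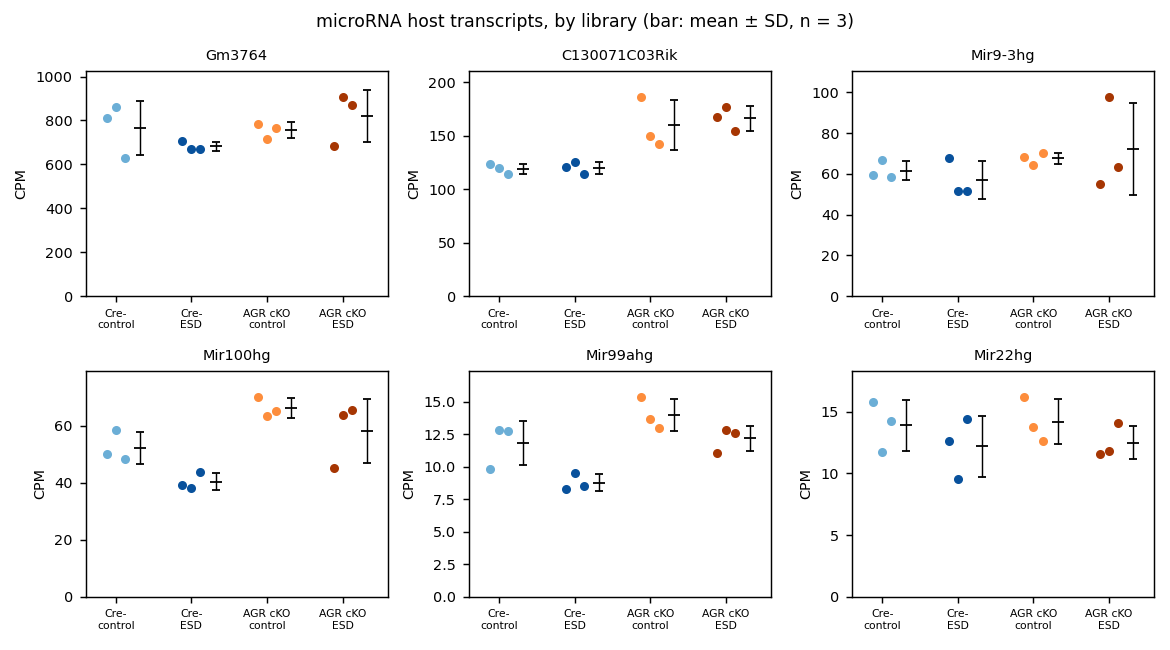
CPM of 6 microRNA host transcripts by group; each point is 1 library, and the bar beside the points is the group mean ± SD (n = 3). C130071C03Rik lies at 114 to 125 CPM in Cre- and at 143 to 186 CPM in AGR cKO, while the groups of Gm3764 overlap between 629 and 909 CPM.

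Promoter sequences bear on a receptor that binds DNA, so the windows of the members called for its loss were searched. RefSeq windows of 300 bases, 250 before to 50 after a start site, were at hand for 224 members. The full response element, the letters GNACA, any 3 bases and TGTNC read on both strands, occurred in a window of 3 members (1.34%), beside 0.537% of 27025 genes. The 3 were Mir100hg, LOC115488151 and A230072C01Rik. The shorter half-site AGAACA, on both strands and free to overlap the element, occurred for 40 of the 224 (17.9%), beside 21.3% of all genes. No window was at hand for the called members Gm31262, LOC115489729 and Gm46954. Among the other called members, Gm16168 had 2 half-sites and Gm46093 had 1. Of the called members searched, Mir100hg alone has the full element, in the window of its start at 41474893 (GRCm38.p6, plus strand, chr9:41474643-41474942). The element begins 188 bases before that start and is in capitals below. The first C130071C03Rik window (plus strand, chr13:83721131-83721430) and that of B930095G15Rik (plus strand, chr14:121248456-121248755) are shown beside it and hold neither motif. The other C130071C03Rik windows, including that at the start of its leading form NR_152246, hold neither as well. The Mir100hg window at its start at 41376526 also holds neither motif. The leading Mir100hg form NR_015483 (34.9% of its TPM) starts elsewhere, at 41581253.
Mir100hg: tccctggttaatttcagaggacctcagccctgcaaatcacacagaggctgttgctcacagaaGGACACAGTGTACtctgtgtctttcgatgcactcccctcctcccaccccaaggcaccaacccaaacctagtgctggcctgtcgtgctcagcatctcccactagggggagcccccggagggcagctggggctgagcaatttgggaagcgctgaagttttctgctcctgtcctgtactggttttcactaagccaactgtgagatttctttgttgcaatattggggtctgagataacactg
C130071C03Rik: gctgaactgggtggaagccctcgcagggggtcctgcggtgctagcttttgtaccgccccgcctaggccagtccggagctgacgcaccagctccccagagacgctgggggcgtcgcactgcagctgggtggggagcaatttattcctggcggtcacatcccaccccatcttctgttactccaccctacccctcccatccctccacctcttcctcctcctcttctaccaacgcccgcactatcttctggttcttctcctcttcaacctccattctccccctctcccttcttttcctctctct
B930095G15Rik: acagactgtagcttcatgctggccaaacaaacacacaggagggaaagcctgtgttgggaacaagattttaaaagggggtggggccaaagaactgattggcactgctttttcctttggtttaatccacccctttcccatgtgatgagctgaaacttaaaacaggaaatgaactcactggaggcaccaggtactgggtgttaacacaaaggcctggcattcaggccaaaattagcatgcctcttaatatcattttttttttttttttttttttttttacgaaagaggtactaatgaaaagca

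A match in these letters is a description and not a binding site. LOC115488151 and A230072C01Rik, the other members with the element, had log2 fold changes of -0.09 ± 0.13 (SE, adjusted p = 0.772) and 0.22 ± 0.10 (SE, adjusted p = 0.263).

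Among the RNAs of known function, receptor loss left most without a call. Small nucleolar RNA host genes supplied 10 members (of 21 listed), with a median of 0.05 on the log2 scale and 0 called. Gas5 gave 41.3, 40.1 and 39.6 CPM in Cre- control, 37.3, 40.9 and 36.6 in Cre- ESD, 44.7, 40.3 and 38.6 in AGR cKO control, and 44.8, 39.6 and 39.7 in AGR cKO ESD, a log2 fold change of 0.07 ± 0.06 (SE, adjusted p = 0.604). The groups overlapped, and its CV of 6.20% was among the low ones. Snhg3 had the highest value of the group, 0.32 ± 0.10 (SE, adjusted p = 0.0983), and is 1 of the 41 members with a group mean under 5 CPM, that of Cre- ESD.

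All 5 listed RNAs of nuclear bodies were members, and 0 were called. Malat1 gave 2340, 1982 and 1924 CPM in Cre- control, 1797, 2338 and 2022 in Cre- ESD, 2781, 1766 and 1540 in AGR cKO control, and 1597, 2046 and 1845 in AGR cKO ESD, and its fold change was -0.11 ± 0.13 (SE, adjusted p = 0.719). Neat1 gave 95.9, 119.7 and 102 CPM in Cre- control, 72.9, 73.3 and 140.3 in Cre- ESD, 138, 92.2 and 92.3 in AGR cKO control, and 52.02, 234 and 113 in AGR cKO ESD. Its lowest and highest libraries were both AGR cKO ESD, and the fold change was 0.23 ± 0.30 (SE, adjusted p = 0.742). Miat, a nuclear RNA of the nervous system also called Gomafu, gave 191, 257 and 165 CPM in Cre- control, 216, 194 and 187 in Cre- ESD, 354, 256 and 279 in AGR cKO control, and 164, 420.2 and 248 in AGR cKO ESD and a fold change of 0.49 ± 0.19 (SE, adjusted p = 0.171).

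Neural development RNAs supplied 8 members (of 18 listed), 7 with a positive value and a median of 0.20, and C130071C03Rik was the 1 called. Sox2ot, which spans the gene of the stem cell factor Sox2, was at 0.17 ± 0.10 (SE, adjusted p = 0.381) and Sox1ot at 0.15 ± 0.14 (SE, adjusted p = 0.619). Rmst, known as a partner of Sox2, was the negative one at -0.73 ± 0.31 (SE, adjusted p = 0.209), with values from 2.69 to 15.1 CPM over the libraries. Six3os1 ranged from 4.83 to 27.3 CPM, both within AGR cKO ESD.

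The lists were completed by 5 imprinted RNAs (of 13 listed), 2 of the X inactivation region (of 5) and 4 cytoplasmic or stress RNAs (of 16), with 0 called. Kcnq1ot1, the antisense RNA of the Kcnq1 imprinted domain, was at 0.27 ± 0.12 (SE, adjusted p = 0.244). Ftx and Firre on the X chromosome were at 0.22 ± 0.08 (SE, adjusted p = 0.151) and 0.07 ± 0.08 (SE, adjusted p = 0.692). The NORAD counterpart 2900097C17Rik was at 0.12 ± 0.07 (SE, adjusted p = 0.336), and Oip5os1, the RNA also called Cyrano that promotes decay of miR-7, at 0.12 ± 0.06 (SE, adjusted p = 0.313).

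**Figure D4:**
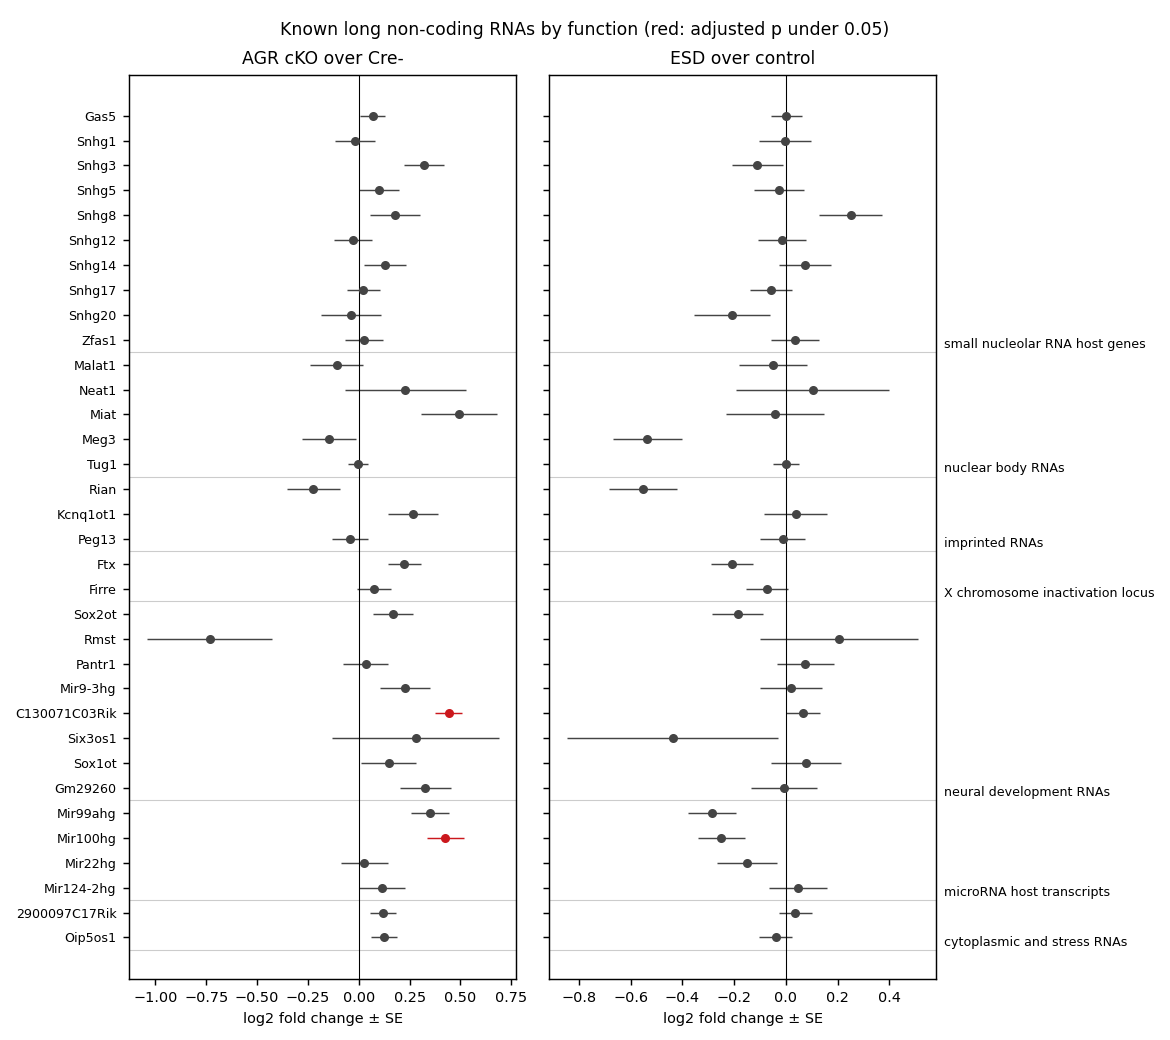
Log2 fold change ± SE of the members on the 7 functional lists for AGR cKO over Cre- (left) and for ESD over control (right), 1 row per RNA. The 2 red points at left, C130071C03Rik at 0.44 and Mir100hg at 0.43, are the ones that passed the adjusted threshold, and at right Meg3 and Rian lie lowest, at -0.53 and -0.55.

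Maternal separation was tested next, in each genotype and over both. The count of members called was 0 in Cre-, 0 in AGR cKO and 0 over both, as it was for all genes tested (0% in each, edgeR). At an unadjusted p under 0.05, 30 members passed in Cre-, beside 7.19% of all genes, 20 in AGR cKO, beside 7.58%, and 42 over both, beside 10.4%. DESeq2 called 1, 2 and 1 members in these comparisons, beside 26, 18 and 27 of the 19163 genes.

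In Cre- pups the smallest p-values were those of Gm46093, 3110056K07Rik and LOC115490187. Gm46093 had a log2 fold change of 1.499 ± 0.29 (SE, adjusted p = 0.421) with its values as above. 3110056K07Rik gave 7.48, 7.49 and 7.11 CPM in Cre- control, 3.42, 5.01 and 5.25 in Cre- ESD, 6.45, 7.79 and 6.59 in AGR cKO control, and 5.64, 6.34 and 6.81 in AGR cKO ESD, and the 3 Cre- ESD libraries were the lowest of the 12, with -0.66 ± 0.17 (SE, adjusted p = 0.627). LOC115490187 gave 6.08, 6.46 and 4.69 CPM in Cre- control, 1.97, 1.82 and 3.59 in Cre- ESD, 8.03, 6.65 and 7.68 in AGR cKO control, and 3.95, 2.93 and 6.50 in AGR cKO ESD. Its fold change was -1.19 ± 0.32 (SE, adjusted p = 0.627) in Cre- and -0.95 ± 0.22 (SE, adjusted p = 0.438) over both genotypes. Both 3110056K07Rik and LOC115490187 are among the 41 members that other groups carried over the level threshold, and a low group is the one their fold changes describe.

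In AGR cKO pups they were those of Meg3, Rian and C030037D09Rik. Meg3 and Rian are expressed from the maternal copy of the imprinted Dlk1-Dio3 region. Meg3 gave 103, 73.8 and 92.2 CPM in Cre- control, 72.4, 61.6 and 95.6 in Cre- ESD, 106, 111 and 92.4 in AGR cKO control, and 38.8, 63.9 and 61.8 in AGR cKO ESD. The 3 AGR cKO ESD libraries lay below the 3 AGR cKO control libraries, whereas the Cre- groups overlapped. The log2 fold change was -0.89 ± 0.19 (SE, adjusted p = 0.647) in AGR cKO, -0.18 ± 0.19 in Cre- and -0.53 ± 0.13 (SE, adjusted p = 0.438) over both. Rian gave 39.02, 21.5 and 27.3 CPM in Cre- control, 21.2, 21.3 and 27.8 in Cre- ESD, 31.9, 32.02 and 26.97 in AGR cKO control, and 16.7, 14.5 and 18.7 in AGR cKO ESD. Its AGR cKO groups did not overlap, with -0.83 ± 0.19 (SE, adjusted p = 0.647) in AGR cKO and -0.28 ± 0.18 in Cre-.

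Markers of other cell types were lower in the same libraries. The summed level of 12 neuron markers was 60.3 to 74.3 CPM in AGR cKO control and 40.1 to 45.4 CPM in AGR cKO ESD, and 46.7 to 59.4 and 47.1 to 67.4 CPM in the Cre- groups. In AGR cKO all 12 were negative for separation, with a median of -0.82 on the log2 scale and 8 at an unadjusted p under 0.05. In Cre- 10 of the 12 were positive, with a median of 0.11, and Sst was under 1 CPM in every library. The 9 mural cell and fibroblast markers summed to 4593 to 5322 CPM in AGR cKO control and 1761 to 3637 CPM in AGR cKO ESD, without overlap, with 8 of 9 negative and a median of -0.66. All 5 erythroid markers were negative too in AGR cKO, with a median of -0.85. Of these lists 0 markers passed the adjusted threshold, and the part of mural, fibroblast and erythroid cells was not tested. With the summed neuron markers as a covariate, chosen after seeing the data, the fold change in AGR cKO was -0.84 for Meg3 and -0.55 for Rian (adjusted p = 0.9997 for each, edgeR). The neuron sums did not overlap between the AGR cKO groups, so this fit cannot split neuron content from separation. C030037D09Rik gave 16.7, 17.2 and 15.7 CPM in Cre- control, 15.7, 16.7 and 16.8 in Cre- ESD, 12.6, 14.2 and 12.8 in AGR cKO control, and 17.99, 17.5 and 16.1 in AGR cKO ESD, and the AGR cKO control libraries were the lowest, with 0.41 ± 0.10 (SE, adjusted p = 0.647).

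**Figure D5:**
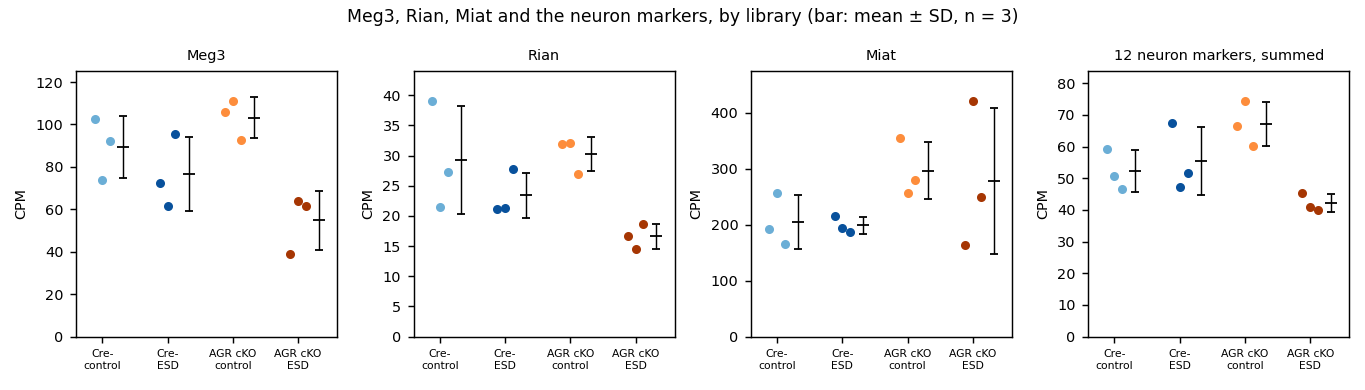
CPM of Meg3, Rian and Miat and the summed CPM of 12 neuron markers by group; each point is 1 library, and the bar beside the points is the group mean ± SD (n = 3). Meg3 lies at 92.4 to 111 CPM in AGR cKO control and at 38.8 to 63.9 CPM in AGR cKO ESD, and the neuron markers at 60.3 to 74.3 and 40.1 to 45.4 CPM.

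Whether the response to separation depended on genotype was tested as an interaction. The count called was 0 of 282, as for all genes (0%, edgeR), and 20 members had an unadjusted p under 0.05, beside 4.49% of all genes. DESeq2 called 0, beside 9 of the 19163 genes. The smallest p-values were those of Gm46093 at -1.67 ± 0.41 (SE, adjusted p = 0.999), Mir124-2hg at 0.72 ± 0.23 (SE, adjusted p = 0.999) and Gm38491 at 0.77 ± 0.24 (SE, adjusted p = 0.999), all as the separation effect in AGR cKO minus that in Cre-. Mir124-2hg, the host named for the neuronal miR-124, gave 9.64, 10.99 and 11.8 CPM in Cre- control, 8.49, 7.32 and 9.73 in Cre- ESD, 8.45, 9.71 and 9.33 in AGR cKO control, and 12.8, 10.05 and 12.7 in AGR cKO ESD. It was lower after separation in Cre- and higher in AGR cKO by group mean, with ranges that overlapped in Cre-. Gm38491 gave 5.10, 6.55 and 5.73 CPM in Cre- control, 4.02, 4.15 and 3.63 in Cre- ESD, 6.08, 5.26 and 5.02 in AGR cKO control, and 4.85, 7.62 and 6.48 in AGR cKO ESD. Its Cre- ESD mean of 3.93 ± 0.267 CPM (SD, n = 3) is under the level threshold, which it passed through the other groups.

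The proteins that work with these RNAs were followed in the same fit. Of 35 listed partners, all 35 were tested and 0 were called in any of the 7 comparisons. With receptor loss 28 of the 35 were positive, with a median of 0.06 on the log2 scale, beside 49.4% of all genes and a median of -0.002. An unadjusted p under 0.05 (edgeR) was found for 3 of the 35, beside 20.0% of all genes. These were Upf2, of nonsense-mediated decay, at 0.14 ± 0.05, Rbm14, of paraspeckles, at 0.18 ± 0.07, and Ciz1, which anchors Xist, at 0.12 ± 0.06 (SE; adjusted p = 0.15, 0.17 and 0.248). All 8 proteins of small nucleolar ribonucleoproteins were positive, with a median of 0.08. With separation over both genotypes 22 of the 35 were negative and 13 positive, with a median of -0.03, beside 48.0% of all genes positive. Eed, of Polycomb complex 2, had the smallest p at -0.24 ± 0.08 (SE, adjusted p = 0.448, edgeR).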

How the data were processed

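RNA of 12 libraries (4 groups of 3) was sequenced, with 1 µg of RNA of integrity number above 7.0 per library. The authors' deposited gene table gives read counts per gene with FPKM and TPM beside them, and a second deposited table gives counts, FPKM, TPM and transcript length per transcript. Per the submitters' processing notes, Trimmomatic, HISAT2 2.1.0, Bowtie2, StringTie 1.3.4b and DESeq2 were used with mm10. How these steps handled strand or reads that map to several genes is not given in the sources used here.

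From the deposited counts, CPM and edgeR 4.0.16 quasi-likelihood F tests (R 4.3.3, filterByExpr, TMM, 1 mean per group over 12 libraries, 8 residual degrees of freedom) were computed for 7 contrasts, with Benjamini-Hochberg adjustment over the 19163 genes kept and a threshold of 0.05. The SE is the log2 fold change over the root of F. DESeq2 1.42.0 and limma 3.58.1 on log2 of the deposited TPM values plus 1 or 0.1 were alternatives. Other alternatives were RLE and upper-quartile scaling, filters on low counts, only the groups compared, the replicate block, each library left out, and 3 marker sums as covariates, chosen after seeing the data. The deposited FPKM were not used. Scripts were checked on simulated counts. Positions and sequences came from RefSeq and exons from GENCODE for GRCm38.

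Named were the called members (or the 3 with the smallest p where fewer than 3 were called), the 10 with the highest TPM, members on 7 functional lists, genes beside the threshold and the called members, and the extremes of CV. The members and lists were chosen with earlier results of these data known. The gene around 1 called member is not reported here.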

Additional observations from a re-analysis of the deposited data

How the results depend on the processing

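Calls of members depended on the tool and the libraries more than on scaling. With receptor loss over both rearing conditions, 10 members were called, and 33 by DESeq2 (1729 of 19163 genes called) and 3 to 14 when 1 library was left out. With a marker covariate, 1 member was called for microglia and macrophages (46 genes called), 10 for endothelium (667 genes) and 10 for neurons (526 genes). Of the 566 long non-coding RNAs tested at 2 CPM or more, 17 were called in the main fit, and of the 139 at 10 CPM or more, 6. In ESD, 4 were called, and 14 by DESeq2 (761 genes), 2 with upper-quartile scaling, 1 with no filter on low counts, 1 by limma on log2(TPM + 1) and 1 by limma on log2(TPM + 0.1). The ESD count was 0 with only the groups compared and 0 to 5 when 1 library was left out. It was 0 with the microglia and macrophage covariate, 0 with the neuron covariate and 3 with the endothelium covariate (248 genes). Receptor loss without separation gave 0 calls, but 5 by DESeq2 and 1 with only the groups compared (Gm15564). Separation gave 0 calls, but 1 in Cre-, 2 in AGR cKO and 1 over both by DESeq2. With 1 library left out, the calls over all genes were 151 to 932 over both rearing conditions and 2 to 280 in ESD. The ESD fits with upper-quartile scaling and no filter called 171 and 100 genes, and the limma fits 142 and 162. Those with only the groups compared and with the microglia or neuron covariate called 0 genes. The cause of these differences was not tested. The members' share of counts, 0.884%, was 0.581% without the 3 most abundant members. The marker covariates were chosen after seeing the data.

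For the single members named, 554 alternative values kept their direction and side of the threshold, 119 kept only the direction, 7 newly passed the threshold and 0 changed sign. The 119 are all lost calls, whereas many of the 554 belong to values that were not called in the main fit. Gm46093 in ESD stayed called in 5 of 24 alternatives, and E130114P18Rik over both rearing conditions in 7 of 23. B930095G15Rik over both rearing conditions stayed called in 23 of 23. The replicate numbers were not taken to pair the samples, since the labels do not say so and only 7 of 18 same-numbered pairs correlated above 0.1 (range -0.104 to 0.227). As a hint from the data the other way, 8 of 12 libraries correlated best with their own number. With the replicate number as a block, 12 members were called for receptor loss over both conditions, 5 in ESD and 0 in the other comparisons. E130114P18Rik (adjusted p = 0.0618) and Gm46093 in ESD (adjusted p = 0.0590) were not among them. With 3 libraries a group, an exact permutation test cannot give p below 0.1.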

Other observations

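Gm15564, on the list by its mean level, was present in some libraries and had no read in others. It gave 24.4, 17.4 and 23.0 CPM in Cre- control, 0, 0 and 21.1 in Cre- ESD, 0, 0 and 0 in AGR cKO control, and 17.8, 0 and 0 in AGR cKO ESD. No fold change is given, since a fitted fold for such values depends on the prior count.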
